A study of Mus musculus with 18 samples.

Results

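The mRNAs of the cytosolic ribosomal proteins were followed across 18 mouse liver RNA-seq libraries. Members were taken by symbol: every gene whose symbol begins with Rpl or Rps followed by a digit, together with Rplp0, Rplp1, Rplp2 and Rpsa, leaving out the Rps6k kinases, pseudogenes marked -ps and Rps27l. The rule found 85 of the 19057 genes in the table (0.446%), and it used no measured value. A mean of at least 1 RPKM (the authors' read number of a gene divided by its length and by the library's total) was asked for before testing, and 82 members passed among 10204 tested genes. Of the tested members, 46 belong to the large subunit and 31 to the small subunit, 3 are paralogs (Rpl22l1, Rpl36al and Rpl37rt), and Rpl7l1 and Rps19bp1 match the symbols without being proteins of the mature ribosome. The paralogs Rpl3l, Rpl39l and Rpl32l were not tested: Rpl39l was listed at 0 in every library, and Rpl3l and Rpl32l did not exceed 0.09 and 0.15 RPKM.

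All livers came from male ICR mice at 10 weeks of age, with 3 libraries in each of 6 groups. Con mice were the controls. HS mice had a high-fat diet and streptozotocin (STZ), a toxin that kills the insulin-producing beta cells of the pancreas. A10 mice were dosed with alginate oligosaccharides (AOS, seaweed-derived sugars) at 10 mg/kg, with no other treatment named in the labels, and HS+A10 mice had the high-fat diet, STZ and AOS at 10 mg/kg. A10-FMT and Con-FMT mice had the high-fat diet and STZ and then received small-intestinal microbiota, pooled within a donor group, from mice dosed with AOS at 10 mg/kg or from undosed control mice. The labels do not say whether the 3 libraries of a group came from separate animals, so p-values measure only the spread between these libraries. In pieces of whole liver, fewer cells of a type and less RNA per cell cannot be told apart.

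A ribosome is built from rRNA and about equal numbers of each of its proteins, and cells make these proteins in step. Most ribosomal protein mRNAs begin with a C followed by a run of pyrimidines, the 5' terminal oligopyrimidine (TOP) tract, through which mTORC1, the nutrient-sensing kinase complex, and the binding protein Larp1 set their translation and stability. The liver is rich in ribosomes because it makes most plasma proteins, and ribosome content in liver is known to follow feeding and insulin.

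Sequences around the start sites of the members that the results turn on were searched for runs of pyrimidines. Each window below runs from 15 bases before to 15 bases after a RefSeq start (build GRCm38.p6) on the strand of the gene. Capitals mark a C followed by at least 6 further C or T anywhere in the window, called a tract here. Such a run need not begin at the first base of the mRNA, so it does not by itself show a TOP tract. The window of Rpl35 lies at chr2:39005117-39005146 on the minus strand, of Rpl28 at chr7:4792950-4792979 on the plus strand, of Rpl18 at chr7:45718056-45718085 on the plus strand, of Rps18 at chr17:33955651-33955680 on the minus strand, of Rpl13a at chr7:45128731-45128760 on the minus strand, and of Rpl22l1 at chr3:28805493-28805522 on the plus strand. The window of Rpl39 lies at chrX:37085208-37085237 on the minus strand, of Rpl12 at chr2:32961697-32961726 on the plus strand, of Rps7 at chr12:28635939-28635968 on the minus strand, of Rpl36a at chrX:134585639-134585668 on the plus strand, and of Rplp0 at chr5:115559452-115559481 on the plus strand.
Rpl35: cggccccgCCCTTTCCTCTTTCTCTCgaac
Rpl28: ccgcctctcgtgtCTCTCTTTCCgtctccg
Rpl18: tgcgtctcgcaggccgCTCTTTCCCCgccc
Rps18: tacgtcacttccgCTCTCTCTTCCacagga
Rpl13a: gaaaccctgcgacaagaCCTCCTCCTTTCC
Rpl22l1: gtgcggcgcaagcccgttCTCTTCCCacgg
Rpl39: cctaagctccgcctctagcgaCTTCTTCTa
Rpl12: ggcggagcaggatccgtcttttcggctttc
Rps7: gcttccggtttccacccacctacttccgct
Rpl36a: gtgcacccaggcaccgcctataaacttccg
Rplp0: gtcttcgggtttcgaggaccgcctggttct

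A tract was found on the gene's own strand in 32 of the 65 members that the RefSeq table matched (49.2%) and in 4421 of 27025 genes of that table (16.4%). A window without capitals says only that these letters are not within it. Members with and without a tract both included called genes, and a difference between them was not tested: in HS against Con with each library scaled to the same median, 26 of 30 tested members with a tract and 27 of 32 without one were called lower, with medians of -0.46 and -0.40 on the log2 scale.

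Levels of single members spread widely. Rps2, which sits where mRNA enters the small subunit, had the highest mean at 801 RPKM, followed by Rpl10, needed late in the making of the large subunit, at 787 RPKM and Rpl41, the shortest of the ribosomal proteins, at 639 RPKM. At the low end were Rpl29 at 1.2, Rpl34 at 5.76, Rps6 at 8.57, Rpl37rt at 12.3, Rps15a at 12.5 and Rps20 at 24.1 RPKM, although a ribosome holds about equal amounts of each protein. Ribosomal protein genes have many near-identical pseudogene copies, and how the authors counted reads that match several genes is not given in the sources used here. Among the 72 members with a transcript and at least 50 RPKM, the median member shared 61.5% of its 50-base transcript windows with another gene. Among the 11 with a transcript and under 50 RPKM, the untested Rpl3l and Rpl39l included, the median was lower, at 12.2%. Any part of shared sequence in the low levels was not tested. Of the low ones, Rps6 shared 84.6%, Rpl29 78.5%, Rpl34 37.9%, Rps15a 37.6% and Rps20 7.58%. Levels between members are therefore uncertain, and the comparisons below are between groups for the same gene.

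**Figure D1:**
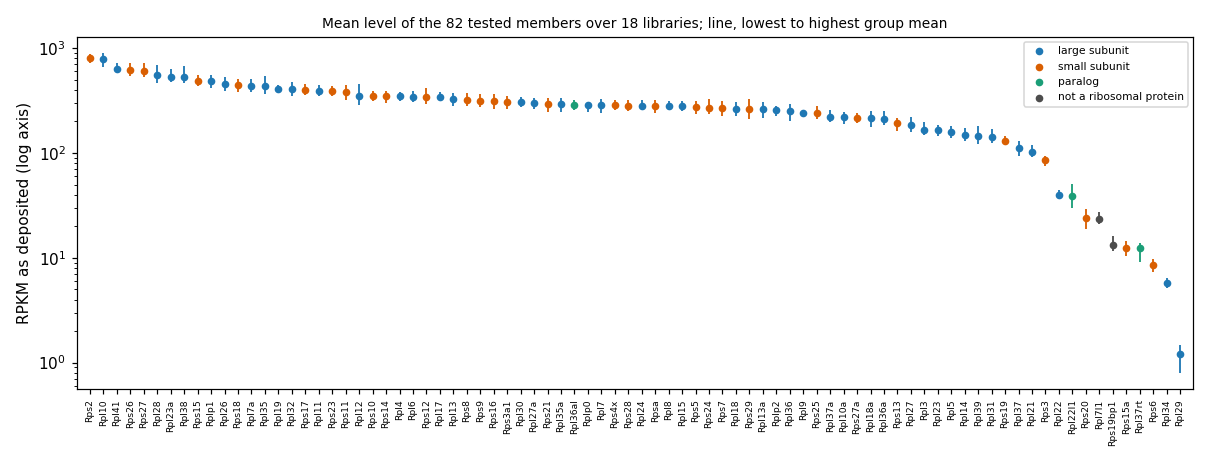
Mean RPKM as deposited of the 82 tested members over 18 libraries (points, log axis), ordered by level and coloured by subunit, with a line from the lowest to the highest group mean. Rps2 is at the left at 801 RPKM and Rpl29 at the right at 1.2 RPKM, and for most members the lines are short beside the differences between genes.

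The deposited RPKM of a library summed to between 692820 and 806940. Relative depth, read from the steps between low values of 36 genes, lay between 0.954 and 1.04, with the HS libraries lowest at 0.954 to 0.968; absolute depth is unknown. The hepatocyte markers were high in every library (7 of 8 in the table, summed level 37412 to 59469 RPKM). Library 3 of Con-FMT stood apart, with a summed level of 20292 RPKM over 10 exocrine pancreas markers against at most 50.3 RPKM in every other library. Library 3 of Con lay between the other Con libraries for 97.9% of the 140 tested genes that differed at least 2-fold between them, and for 72 of the 82 members. Because the median tested gene moved between groups as deposited, by 0.14 on the log2 scale in HS against Con and by -0.16 in A10-FMT against HS, each result is given as deposited and again with every library scaled to the same median, called relative to all genes.

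As a share of the summed RPKM the 85 members held 2.83%, 3.99% and 3.59% in the 3 Con libraries and 3.94%, 3.49% and 3.40% in the A10 libraries. In HS they held 2.91%, 3.15% and 3.24%, and in HS+A10 they held 2.84%, 3.13% and 2.72%. The shares in A10-FMT were 3.02%, 2.69% and 2.63%, and those in Con-FMT were 3.23%, 3.36% and 3.00%. Con library 1 lay under all HS libraries and within the range of HS+A10, and it was the lowest Con library for 81 of 82 tested members.
Scaled to the same median, the summed level of the members was 28130 ± 2523 RPKM in Con, 26498 ± 1114 in A10, 20654 ± 363 in HS, 19879 ± 1060 in HS+A10, 23068 ± 930.2 in A10-FMT and 23559 ± 3071 in Con-FMT (mean ± SD, n = 3 each). On that scale all Con and A10 libraries lay above all HS and HS+A10 libraries, and the recipients of microbiota lay between, apart from Con-FMT library 3 at 20496 RPKM, which fell within the range of the HS libraries, and Con-FMT library 2 at 26638 RPKM, which fell within that of the Con libraries.

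**Figure D2:**
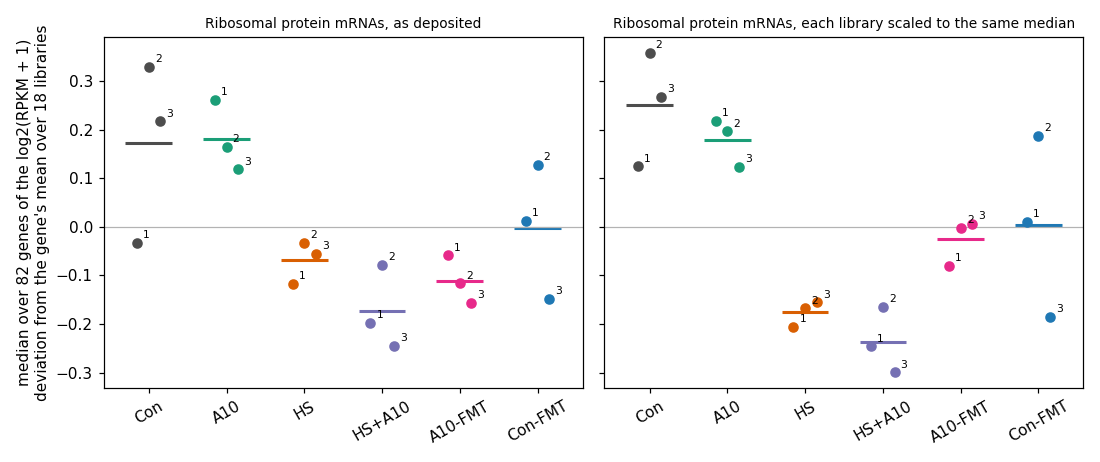
Median over the 82 tested members of the deviation of log2(RPKM + 1) from each gene's mean over 18 libraries, as deposited (left) and with libraries scaled to the same median (right), with points for libraries (numbered by replicate) and bars for group means. Relative to all genes the Con and A10 libraries sit between 0.12 and 0.36 and the HS and HS+A10 libraries between -0.30 and -0.15.

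The first comparison asked what high-fat diet with STZ did to the family. In HS against Con, 80 of 82 members were lower as deposited, with a median log2 change of -0.24 (0.847-fold) while the median tested gene rose by 0.14. Among the members 15 were called lower, against 1.87% of all tested genes, and 0 were called higher, against 15.9% of all tested genes (limma, Benjamini-Hochberg adjusted p under 0.05); at an unadjusted p under 0.05 these counts were 44 lower and 0 higher. The 3 HS libraries lay below all 3 Con libraries for 29 members, as for 4.17% of all tested genes. With libraries scaled, the median change was -0.42 (0.746-fold), 67 members were called lower against 4.76% of all tested genes, and 0 were called higher against 3.90%. On that scale all HS libraries lay below all Con libraries for 76 members, as for 15.9% of all tested genes.

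Among the 15 members called lower as deposited were Rpl22l1, Rpl12, Rpl39, Rpl38, Rpl35, Rpl28, Rps20, Rpl36a, Rpl13a and Rps7.
Rpl39, a short protein that lines the tunnel through which new proteins leave, was at 151, 204 and 191 RPKM in Con and at 133, 137 and 129 RPKM in HS. The groups did not overlap, and the log2 change was -0.44 (SE 0.12, adjusted p = 0.0187, limma).
Rpl12, at the base of the stalk that receives elongation factors, was at 358, 539 and 464 RPKM in Con and at 309, 293 and 362 RPKM in HS. HS library 3 lay just above Con library 1, and the change was -0.48 (SE 0.13, adjusted p = 0.0190, limma).
Rpl35, at the rim of the exit tunnel, was at 448, 606 and 563 RPKM in Con and at 395, 405 and 397 RPKM in HS, with no overlap and a change of -0.42 (SE 0.11, adjusted p = 0.0190, limma). Rps20, in the head of the small subunit, was at 26.1, 32.2 and 30.1 RPKM in Con and at 21.9, 20.5 and 24.1 RPKM in HS, again with no overlap.

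On the relative scale the members with the smallest adjusted p were Rpl36a, Rpl39, Rps7 and Rpl18. Scaled RPKM of Rpl36a was 242, 294 and 267 in Con and 188, 180.4 and 175 in HS, so every HS library was under every Con library, with a change of -0.56 (SE 0.09, adjusted p = 0.00184, limma). Rps7, a small-subunit protein, was at 307, 364 and 329 scaled RPKM in Con and 230.3, 228 and 248 in HS, and Rpl18, of the large subunit, was at 307, 326 and 326 in Con and 237, 245 and 234 in HS. Both were separated in the same way. Of the members often used as reference genes or known outside the ribosome, Rps18 changed by -0.49, Rpl13a by -0.54 and Rpsa, also known as the laminin receptor, by -0.35, and all were called lower on that scale. Rpl5 (-0.30) and Rpl11 (-0.46), which bind the p53 regulator Mdm2 together with 5S rRNA, were also called lower, as were Rpl10 (-0.36), Rpl41 (-0.42) and Rplp1 (-0.50). Rpl3, at the catalytic centre, had a change of -0.33 (adjusted p = 0.0659, limma), Rps2 of -0.32 (adjusted p = 0.0732) and Rps6, the target of the S6 kinases, of -0.29 (adjusted p = 0.269).

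Rplp0, the stalk protein to which Rplp1 and Rplp2 bind, was not called on either scale. It was at 287, 299 and 308 RPKM in Con and at 280.2, 309 and 326 RPKM in HS. The HS libraries spanned the range of the Con libraries as deposited and lay under all of them relative to all genes, with a change of 0.03 (SE 0.07) on the first scale and -0.16 (SE 0.07, adjusted p = 0.202, limma) on the second. Rplp2, its partner, had a change of -0.15 (SE 0.12) as deposited.
The other member above Con as deposited was Rpl7l1, a relative of Rpl7, at 21.7, 25.8 and 24.2 RPKM in Con and 26.3, 26.5 and 23.4 RPKM in HS (change 0.09, SE 0.08, adjusted p = 0.443, limma). At the other end lay Rpl22l1, the paralog that can replace Rpl22, with 34.4, 56.8 and 52.0 RPKM in Con and 32.6, 25.9 and 31.3 RPKM in HS. All HS libraries lay under all Con libraries, and the change of -0.63 (SE 0.17, adjusted p = 0.0213, limma) was the lowest of the 82 members. Rpl22 itself had a change of -0.21 (SE 0.08, adjusted p = 0.0872, limma). Of the other paralogs, Rpl36al (-0.12, SE 0.10) and Rpl37rt (-0.10, SE 0.22) were not called.

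**Figure D3:**
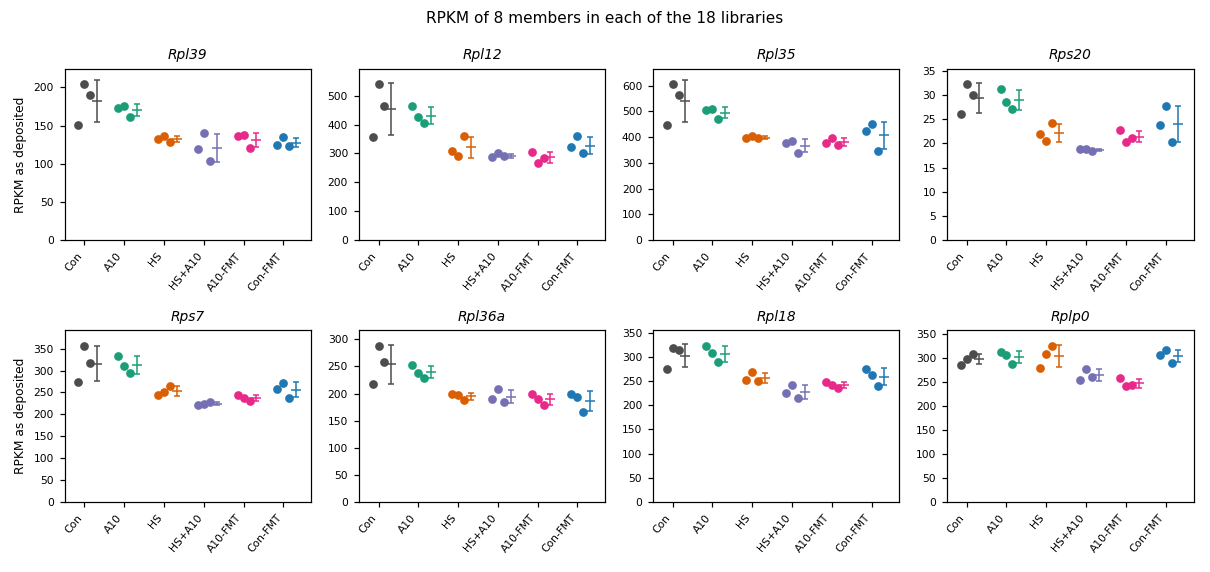
RPKM as deposited of 8 members in each library (points, by group) with the group mean and SD (n = 3) beside them, each axis starting at 0. In the panels of Rpl39, Rpl35, Rps20, Rps7, Rpl36a and Rpl18 the HS libraries lie under all Con libraries, and in that of Rplp0 they overlap.

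How many members were called as deposited rested on single libraries. In place of 15, the fit called 6, 4 and 5 without HS library 1, 2 and 3, 0 without Con library 2 or 3, and 35 without Con library 1. On the relative scale the 67 became 41, 49 and 55 without HS library 1, 2 and 3, and 67, 33 and 39 without Con library 1, 2 and 3. Other measures moved with this comparison: the summed stellate cell markers (6 of 6 in the table) were 72.0 to 83.1 RPKM in Con and 112 to 175 RPKM in HS, and the erythroid markers (5 of 5) 1256 to 1972 and 2886 to 10041 RPKM in Con and HS, with no marker of these lists at 0 in all libraries. As deposited 3 of the 4 tested erythroid markers were higher, with 1 called, and Alas2 was lower. Lymphocyte markers (7 of 7, of which 1 was tested) summed to 3.51 to 4.2 RPKM in Con and 2.82 to 3.37 RPKM in HS. Exocrine pancreas markers (10 of 10) summed to 32.55 to 41.17 and 14.06 to 27.45 RPKM. The hepatocyte sums overlapped (42545 to 59469 and 38790 to 45326 RPKM), and as deposited 3 of the 7 markers were higher and 4 lower, with 1 called in each direction. Their part in the result, and that of depth, was not tested.

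HS+A10 against A10 sets AOS-dosed mice with the high-fat diet and STZ against AOS-dosed mice and shares no library with HS against Con; it was added after the data were seen. All 82 members were lower as deposited, with a median change of -0.34 (0.790-fold) beside 0.04 for all tested genes. The fit called 46 members lower, against 7.28% of all tested genes, and 0 higher, against 13.6% (limma; 70 lower and 0 higher at an unadjusted p under 0.05). For 70 members all HS+A10 libraries lay below all A10 libraries, as for 16.1% of all tested genes. With libraries scaled, the median was -0.40 (0.758-fold), 67 members were called lower against 11.3% of all tested genes and 0 higher against 12.2%, and 77 members did not overlap, as for 21.8% of all tested genes.

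The members with the smallest adjusted p here were Rps3a1, Rpl7, Rps20, Rps7 and Rpl18 over the 2 scales.
Rps3a1, a small-subunit protein, was at 355, 340.4 and 348 RPKM in A10 and at 253, 270.2 and 267 RPKM in HS+A10. The groups lay far apart, with a change of -0.40 (SE 0.07, adjusted p = 9.10e-04, limma).
Rps20 was at 31.3, 28.4 and 27.1 RPKM in A10 and at 18.9, 18.7 and 18.4 RPKM in HS+A10, a change of -0.60 (SE 0.10, adjusted p = 0.00117, limma) and the lowest after Rpl22l1 (-0.67, SE 0.17, adjusted p = 0.0125). Rpl7, of the large subunit, was at 341, 328 and 319.8 RPKM in A10 and at 235, 250.3 and 239.7 RPKM in HS+A10. Both genes were separated by more than the spread within either group. Rpl10, among the most abundant, was at 998, 837 and 885 RPKM in A10 and at 632, 723 and 628 RPKM in HS+A10 (change -0.46, SE 0.10, adjusted p = 0.00463, limma). At the other end, Rpl7l1 changed by -0.00 (SE 0.08) and Rpl29 by -0.04 (SE 0.17), and neither was called. Without each library in turn, 26 to 41 members were called as deposited (27 and 26 without HS+A10 library 1 and 3, 27 and 29 without A10 library 1 and 2) and 45 to 62 relative to all genes. Markers moved here too, without overlap between the groups: the summed endothelial markers (5 of 5 in the table) were 35.6 to 44.6 RPKM in A10 and 51.4 to 61.3 RPKM in HS+A10, with 4 called higher as deposited, and the stellate markers (6 of 6) 81.5 to 90.4 and 112 to 122 RPKM, with 3 called higher. The hepatocyte markers (7 of 8) summed to 51399 to 59076 and 43623 to 46165 RPKM, with 3 called lower and 1 higher. Lymphocyte markers (7 of 7) summed to 4.56 to 5.05 RPKM in A10 and 2.36 to 2.66 RPKM in HS+A10. The sums were 20.11 to 27.11 and 28.01 to 44.36 RPKM for cholangiocyte markers (5 of 5). For exocrine pancreas markers (10 of 10) they were 31 to 50.34 and 18.75 to 30.3 RPKM. No marker of these lists was at 0 in all libraries, and their part in the result was not tested.

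Relative to all genes, 61 members were called lower in both of these comparisons, 91.0% of the 67 in each, against 3.51% of all tested genes called lower in both. With 67 of the 82 members called in each, most calls had to be shared, so this overlap says little about single genes. Rps2, Rps6, Rps19, Rps21, Rpl29, Rpl36, Rpl37rt, Rplp2 and Rpl7l1 were called in neither. As deposited 14 were called in both, 93.3% of the 15 and 30.4% of the 46, against 1.36% of all tested genes. Across the 82 members the relative changes of the 2 comparisons had a Pearson r of 0.617 and a Spearman rho of 0.499, a description over genes that share one fit and are not independent. The subunits moved together: the relative median in HS against Con was -0.44 over the 46 large-subunit members and -0.41 over the 31 small-subunit members, with SDs over members of 0.12 and 0.09, and in HS+A10 against A10 the medians were -0.40 and -0.41.

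**Figure D4:**
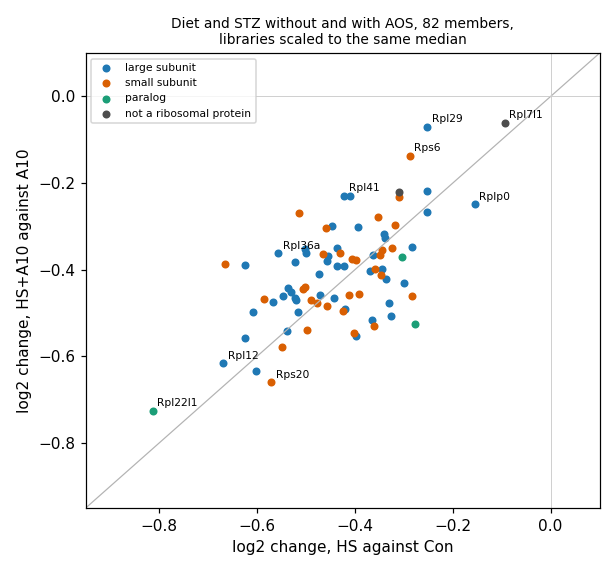
Log2 change of each of the 82 members with libraries scaled to the same median, in HS against Con (x axis) and in HS+A10 against A10 (y axis), coloured by subunit, with the line of equal change. All points lie below 0 on both axes, with Rpl22l1 lowest on both at -0.81 and -0.73, and Rpl7l1 and Rplp0 nearest to 0 in HS against Con.

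To see which members departed from the family, each library was shifted by the median deviation of the 82 members, and the fit was repeated; this too was added after the data were seen. In HS against Con 2 members lay above the family, against 64.6% of all tested genes, and 5 below it, against 1.12% of all tested genes. Those above were Rpl7l1 (0.33, adjusted p = 0.00793, limma) and Rplp0 (0.27, adjusted p = 0.0110), and those below were Rpl22l1 (-0.39, adjusted p = 0.0229), Rpl12 (-0.24, adjusted p = 0.0254), Rpl35 (-0.18, adjusted p = 0.0349), Rpl39 (-0.20, adjusted p = 0.0434) and Rpl28 (-0.18, adjusted p = 0.0453). In HS+A10 against A10 Rpl7l1 (0.35, adjusted p = 0.00421, limma), Rpl9 (0.20, adjusted p = 0.0312) and Rpl41 (0.19, adjusted p = 0.0334) lay above the family, 3 members beside 64.7% of all tested genes. Rps20 (-0.25, adjusted p = 0.0142) and Rpl28 (-0.22, adjusted p = 0.0167) lay below it, 2 members beside 2.12%. Rpl7l1, which is no protein of the mature ribosome, and Rpl28 were thus on the same side in both. Since the shift by itself placed most tested genes above the family, the shares over all genes are no baseline for the members. With so many genes called, the adjustment over all genes also let weaker changes pass. Calls near the threshold, that of Rpl28 in HS against Con among them, are therefore weak. No member departed in A10 against Con, HS+A10 against HS, A10-FMT against HS or A10-FMT against Con-FMT in this fit, and 1 did in Con-FMT against HS (Rps19bp1, a binding partner of Rps19, at -0.28, adjusted p = 0.0352).

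No member was called for AOS dosing, with or without the high-fat diet and STZ. In A10 against Con 40 members were higher and 42 lower as deposited, with a median change of -0.01 beside 0.07 for all tested genes, and 0 were called higher or lower against 0.0490% and 0.0196% of all tested genes (limma; 1 member was lower and 0 higher at an unadjusted p under 0.05). On the relative scale the median was -0.09, and again 0 were called higher or lower, against 0.0490% and 0.0294% (5 lower and 0 higher at an unadjusted p under 0.05). The largest changes were those of Rps6 (-0.30, SE 0.16), Rps19bp1 (-0.29, SE 0.10), Rps19 (0.16, SE 0.14) and Rpl36 (0.16, SE 0.24). Rps6 was at 8.98, 10.1 and 9.97 RPKM in Con and 8.97, 5.54 and 9.0 RPKM in A10, and A10 library 2 alone lay far from the rest.

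In HS+A10 against HS 75 members were lower and 7 higher as deposited, with a median of -0.10 beside -0.03 for all tested genes. None was called, against 2.95% of all tested genes higher and 4.37% lower (limma; 9 members lower and 0 higher at an unadjusted p under 0.05). Relative to all genes the median was -0.06, and 0 were called higher against 5.67% and 0 lower against 3.49% (6 lower and 0 higher at an unadjusted p under 0.05). Rpl37rt, a copy of Rpl37, had the largest change (-0.45, SE 0.22), followed by Rps19bp1 (-0.33, SE 0.10, adjusted p = 0.0601, limma), and the largest upward were Rps19 (0.12, SE 0.14) and Rpl22l1 (0.09, SE 0.17). Without HS library 1, 3 members were called lower as deposited. Whether AOS acted differently with the high-fat diet and STZ than without was tested by the interaction in the same fit, and no member was called on either scale (limma; 3 members at an unadjusted p under 0.05 as deposited, Rps3a1 lowest with -0.30, SE 0.09, adjusted p = 0.212, and 1 member relative to all genes).

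The recipients of microbiota were compared with HS, which served as the common control for both, so the 2 comparisons share libraries. As deposited, 52 members were lower and 30 higher in A10-FMT, with a median of -0.04 while all tested genes had a median of -0.16; 2 were called lower, against 21.0% of all tested genes, and 0 higher, against 2.09%. The members called were Rplp0, at 280.2, 309 and 326 RPKM in HS and 259, 241 and 244 RPKM in A10-FMT (-0.29, SE 0.07, adjusted p = 0.0123, limma), and Rpl7l1 (-0.27, SE 0.08, adjusted p = 0.0201). For both genes the groups did not overlap. With libraries scaled, the direction of the family turned: 77 members were higher, with a median of 0.15, and 3 were called higher, against 6.26% of all tested genes, and 0 lower, against 5.06%. For 44 members every A10-FMT library lay above every HS library on that scale, as for 15.5% of all tested genes. The summed macrophage markers (7 of 7 in the table) were 60.9 to 103 RPKM in HS and 40.7 to 50.4 RPKM in A10-FMT, with 5 called lower as deposited and 1 relative to all genes, the erythroid markers (5 of 5) were 2886 to 10041 and 1135 to 2049 RPKM, and the stellate markers (6 of 6) were 112 to 175 and 87.2 to 111 RPKM. Endothelial markers (5 of 5) summed to 38.93 to 44.22 RPKM in HS and 28.56 to 38.23 RPKM in A10-FMT, with 2 called lower as deposited. The sums were 2.82 to 3.37 and 1.94 to 2.71 RPKM for lymphocyte markers, and 14.06 to 27.45 and 32.13 to 37.75 RPKM for exocrine pancreas markers. None of these sums overlapped between the groups, no marker was at 0 in all libraries, and their part in the result was not tested.

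The 3 called were Rpl35a, Rpl22 and Rpl22l1.
Rpl35a, of the large subunit, was at 252, 256 and 236 scaled RPKM in HS and 308, 337 and 332 in A10-FMT (0.39, SE 0.11, adjusted p = 0.0340, limma). Rpl22 was at 33.6, 34.4 and 33.7 in HS and 39.6, 43.5 and 41.3 in A10-FMT (0.28, SE 0.08, adjusted p = 0.0363), and Rpl22l1 at 30.7, 23.6 and 29.3 in HS and 41.6, 35.4 and 46.0 in A10-FMT (0.54, SE 0.17, adjusted p = 0.0480). In each of them the groups did not overlap. Rplp0 and Rpl7l1 were not called on this scale (-0.10 and -0.08). The largest changes as deposited were, besides Rplp0, those of Rpl22l1 (0.35, SE 0.17), Rpl36 (0.26, SE 0.24) and Rpl29 (-0.32, SE 0.17), none of them called. Leaving out any 1 of the 6 libraries brought the 3 calls to 1 (A10-FMT library 1 or 2, or HS library 1) or 0 (A10-FMT library 3, HS library 2 or 3), and as deposited the 2 calls became 1 without each library but A10-FMT library 1.

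In Con-FMT against HS 69 members were higher as deposited, with a median of 0.07 beside -0.12 for all tested genes, and 0 were called higher or lower, against 4.61% and 19.0% of all tested genes (limma; 1 member higher and 1 lower at an unadjusted p under 0.05). On the relative scale 80 members were higher, with a median of 0.18. Of the 82 members 9 were called higher, a share only a little above the 8.41% of all tested genes, and 0 lower, against 12.2%. The count of higher calls by itself therefore does not set the members apart from other genes, and the difference was not tested. Of the 9 called, 3 belong to the large subunit and 5 to the small subunit. The other was Rpl7l1, which is no protein of the mature ribosome. For 20 members all Con-FMT libraries lay above all HS libraries, as for 13.6% of all tested genes. The stellate markers summed to 86.4 to 103 RPKM in Con-FMT, under all HS libraries. The erythroid sums overlapped, at 876 to 3619 RPKM in Con-FMT and 2886 to 10041 RPKM in HS. Of the 4 tested erythroid markers 3 were called lower, while Alas2 had a mean of 108 RPKM in HS and 135 RPKM in Con-FMT. The part of these markers was not tested either. Rps9, a small-subunit protein tied to decoding accuracy, was at 261, 257 and 262 scaled RPKM in HS and 318, 367 and 293 in Con-FMT, without overlap (0.32, SE 0.09, adjusted p = 0.0192, limma). Rps27a, made as a fusion with ubiquitin, was at 192, 187 and 186 in HS and 250.0, 252 and 197 in Con-FMT (0.30, SE 0.09, adjusted p = 0.0296). Library 3, the one with exocrine pancreas markers, was nearest to HS for both genes. Rps3a1 (0.20, adjusted p = 0.0197, limma), Rpl9 (0.23, adjusted p = 0.0276) and Rpl34 (0.34, adjusted p = 0.0466) were called as well. The largest deposited changes, none of them called, were those of Rps19bp1 (-0.22, SE 0.10), Rpl38 (-0.10, SE 0.13), Rpl36 (0.27, SE 0.24) and Rpl34 (0.24, SE 0.13). Library 3 was the lowest Con-FMT library for 73 of 82 members, and without it 34 members were called higher relative to all genes. Without Con-FMT library 1 or 2 there were 3 and 1, and without HS library 1, 2 or 3 there were 3, 3 and 4.

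The direct comparison of donors, A10-FMT against Con-FMT, asked whether AOS-dosed donors mattered. As deposited 71 members were lower, with a median of -0.12 beside -0.03 for all tested genes; 4 were called lower, against 12.0% of all tested genes, and 0 higher, against 6.72%. Rpl7l1 was at 25.4, 28.3 and 28.1 RPKM in Con-FMT and 21.2, 20.4 and 20.9 RPKM in A10-FMT (-0.37, SE 0.08, adjusted p = 0.00369, limma). Rplp0 was at 307, 317 and 291 RPKM in Con-FMT and 259, 241 and 244 RPKM in A10-FMT (-0.30, SE 0.07, adjusted p = 0.0122). For both genes the groups were apart. Rps3a1 (-0.20, adjusted p = 0.0497, limma) and Rps14 (-0.25, adjusted p = 0.0492) were near the threshold. Relative to all genes the median was -0.04, and 2 members, Rpl7l1 (-0.30, adjusted p = 0.00704) and Rplp0 (-0.22, adjusted p = 0.0420), were called lower against 9.39% of all tested genes, and 0 higher against 12.8%. The largest upward changes as deposited were those of Rpl22l1 (0.17, SE 0.17) and Rps29 (0.16, SE 0.18), not called. Without each library in turn, 1 member was called as deposited without A10-FMT library 2 and 2 without any other, while on the relative scale the 2 calls became 3 without Con-FMT library 3, 2 without A10-FMT library 3 and 1 without any other.

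**Figure D5:**
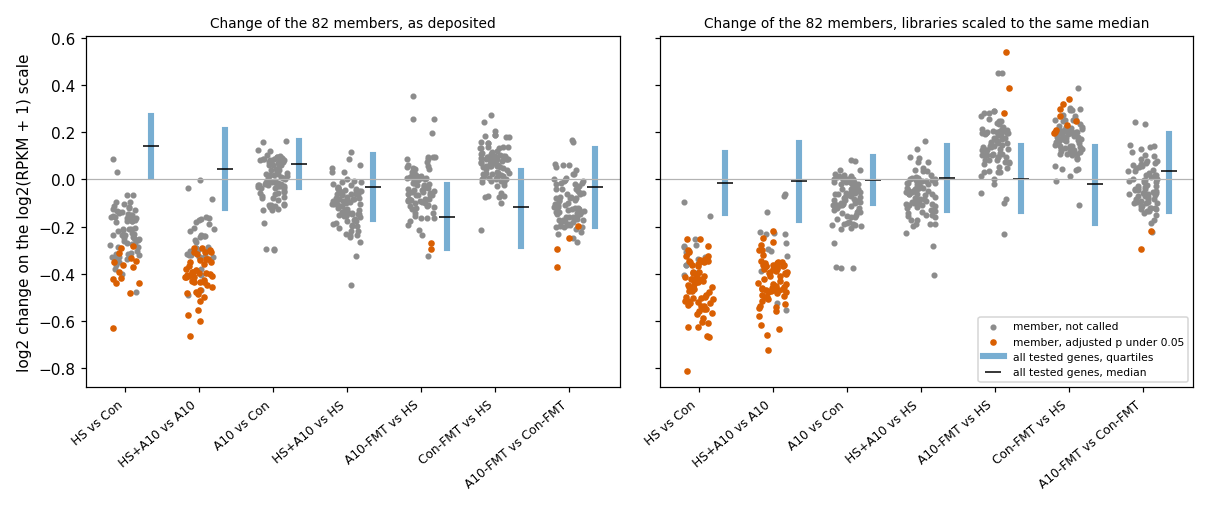
Log2 change of the 82 members in 7 comparisons (points, orange where the adjusted p is under 0.05) beside the quartiles (bar) and median (tick) of all 10204 tested genes, as deposited (left) and with libraries scaled to the same median (right). In HS against Con and HS+A10 against A10 nearly all members lie below the quartile bar of all genes on both scales, and Rpl7l1 is the highest of them in both.

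In both comparisons of high-fat diet and STZ, other gene sets of like length, level or kind had medians nearer to 0 relative to all genes, and the difference from the members was not tested. In HS against Con relative to all genes, the 78 mitochondrial ribosomal proteins, which serve the separate ribosome of mitochondria, had a median change of -0.08, with 1 called lower and 0 higher. Of all tested genes, 4.76% were called lower and 3.90% higher in that comparison. The 75 tested oxidative phosphorylation genes had a median of -0.13, with 3 called lower and 0 higher. Among 568 other genes of at most 1000 bases and at least 50 RPKM, the median was -0.10, with 57 called lower and 26 higher. The members, with a median transcript length of 648 bases beside 1735 bases over tested genes, had a median of -0.42. In HS+A10 against A10 the same medians were -0.03, -0.06 and -0.07 beside -0.40 for the members. In other comparisons this was not so: in A10-FMT against HS the oxidative phosphorylation genes had a relative median of 0.14 beside 0.15 for the members, and in A10-FMT against Con-FMT 0.14 beside -0.04.

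Among the other genes of translation, some were called in the direction of the family. In HS against Con relative to all genes, 3 of 17 elongation factors and other TOP mRNAs were called lower and 0 higher, against 4.76% and 3.90% of all tested genes. Eef1b2, an exchange factor for elongation, changed by -0.27 (SE 0.07, adjusted p = 0.0316, limma). Eif3f, an initiation factor subunit, changed by -0.23 (SE 0.06, adjusted p = 0.0243, limma), and Tpt1, a TOP mRNA of high level, by -0.38 (SE 0.07, adjusted p = 0.00409, limma). As deposited 0 of 17 were called in HS against Con, against 1.87% of all tested genes lower and 15.9% higher, with a median of 0.03. At an unadjusted p under 0.05, 1 was lower and 0 higher (limma). In HS+A10 against A10, 4 of 17 were called lower as deposited, against 7.28% of all tested genes, and 8 relative to all genes, against 11.3%. The 8 were Eef1b2 (-0.45), Tpt1 (-0.39), Npm1 (-0.35), Eif3f (-0.33), Hnrnpa1 (-0.30), Eef1g (-0.29), Btf3 (-0.28) and Eif3h (-0.22). Rack1, a scaffold on the small subunit, was called lower relative to all genes in both (-0.36, SE 0.07, adjusted p = 0.00455, and -0.50, SE 0.07, adjusted p = 1.48e-04), and as deposited only in HS+A10 against A10 (-0.44, SE 0.08, adjusted p = 0.00173).

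Within the list of 18 initiation and mTORC1 genes, 6 were called higher in HS against Con as deposited, against 15.9% of all tested genes. Relative to all genes 2 were called higher, against 3.90%, and 1 lower, against 4.76%. Mtor, the kinase itself, rose from 5.25 ± 0.09 RPKM in Con to 8.29 ± 0.31 in HS (0.41 relative to all genes, SE 0.07, adjusted p = 0.00304, limma), and from 5.96 ± 0.12 in A10 to 10.5 ± 0.70 in HS+A10 (0.66, SE 0.07, adjusted p = 3.06e-05; mean ± SD, n = 3). Sesn2, an inhibitor of mTORC1 that senses leucine, rose from 1.38 ± 0.24 to 2.68 ± 0.54 RPKM and from 1.78 ± 0.30 to 4.83 ± 0.48 RPKM (0.50, adjusted p = 0.0275, and 1.02, adjusted p = 1.34e-04). Eif4a1, the helicase of initiation, was called lower relative to all genes in both (-0.28, adjusted p = 0.0275, and -0.32, adjusted p = 0.00673), and Larp1 likewise in HS+A10 against A10 (-0.44, SE 0.09, adjusted p = 0.00262). Eif4g1, another initiation factor, was called higher in HS+A10 against A10 (0.37 relative to all genes, SE 0.08, adjusted p = 0.00479, limma). In that comparison 12.2% of all tested genes were called higher and 11.3% lower on the relative scale. These are mRNA levels and say nothing of kinase activity.

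Among 17 genes of rRNA synthesis and assembly, 2 (11.8%) were called higher in HS against Con as deposited, under the 15.9% of all tested genes. These were Pes1 (0.38, SE 0.11, adjusted p = 0.0244, limma) and Polr1a (0.28, SE 0.08, adjusted p = 0.0347, limma). None was called relative to all genes in HS against Con (limma; 1 higher and 3 lower at an unadjusted p under 0.05), and none in HS+A10 against A10 on either scale (0 higher and 1 lower relative to all genes, 1 and 1 as deposited). Between the recipients of microbiota, 9 of 17 were called lower in A10-FMT as deposited, against 12.0% of all tested genes, and 7 relative to all genes, against 9.39%. On both scales 0 were called higher, against 6.72% and 12.8%. Of the 82 ribosomal protein mRNAs, 4 and 2 were called lower. Nop58, a core protein of the particles that methylate rRNA, was at 22.4 ± 3.01 RPKM in Con-FMT, 9.41 ± 1.04 in A10-FMT and 13.7 ± 0.41 in HS (mean ± SD, n = 3; -1.16 as deposited in A10-FMT against Con-FMT, SE 0.10, adjusted p = 1.46e-05, limma). Polr1b, a subunit of RNA polymerase I, changed by -0.43 (SE 0.08, adjusted p = 0.00285), Polr1a by -0.38 (SE 0.08, adjusted p = 0.00573), Rrp9 by -0.50 (SE 0.11, adjusted p = 0.00665) and Rrn3, which brings the polymerase to its promoter, by -0.48 (SE 0.12, adjusted p = 0.0125). Con-FMT library 3, the one with exocrine pancreas markers, is among the libraries compared, and counts for this list without it are not given. Nop58 was also low in A10 (8.95 ± 0.34 RPKM) and HS+A10 (8.52 ± 1.28). As deposited it was called lower in HS+A10 against HS (-0.63, SE 0.10, adjusted p = 0.00418, limma) and in A10-FMT against HS (-0.50, SE 0.10, adjusted p = 0.00489). In Con-FMT against HS relative to all genes 6 of the 17 were called higher, against 8.41% of all tested genes. Among them were Nop58 (0.77, SE 0.10, adjusted p = 2.19e-04, limma) and Rrp9 (0.66, SE 0.11, adjusted p = 0.00111, limma).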

How the data were processed

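Poly(A)-selected mRNA from liver was sequenced in 18 libraries. Per the paper's methods the authors mapped reads with SOAPaligner; the submitters' processing notes name Bowtie 0.12.2 and mm10. The deposited table gives RPKM, computed by the authors from the read number of each gene; the handling of reads that match several genes is not given in the sources used here. Groups and replicate numbers came from the labels. RPKM were tested as log2(RPKM + 1) with limma 3.58.1 (R 4.3.3; 1 mean per group over all 18 libraries, variance trend, two-sided) on genes whose mean reached 1 RPKM, with Benjamini-Hochberg adjustment over 10204 genes and a threshold of 0.05. Fold changes are on that scale and understate changes of low genes. The fit was run as deposited and after scaling each library to the same median over tested genes, and it was tested on simulated data.

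The members, gene lists and added comparisons were chosen with earlier results of these data known. Members were named by rule: per comparison and scale up to 4 called members per direction by lowest adjusted p, and the 2 with the largest change in each direction. The rule also took Rplp0, Rplp1, Rplp2, Rpsa, Rps6, Rpl3, Rpl5, Rpl11, Rpl13a, Rps18, Rpl41, the 3 most abundant, paralogs and Rps19bp1. Of the called genes of the pathway lists only some were named, and the others are left out. A few other members were named after their values were seen. Lists were described by counts, not tested. Alternatives tried were other scalings (quantile among them), a pseudocount of 0.1, no filter, fits of the compared groups alone, a replicate block, removal of each library's trend with gene length, and leaving out each library. Samples with the same replicate number had deviations correlated between -0.13 and 0.26, so the numbers were not taken to pair samples. No table column was left unmapped to a library.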

Additional observations from a re-analysis of the deposited data

How the results depend on the processing

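Depth is unknown and 3 libraries per group limit precision. In HS against Con the count of members called lower (15) became 67 with libraries scaled to the same median, 34 with quantile normalization, 62 with the length trend removed and 0 with only the compared groups. Relative to all genes 67 became 24 with only the compared groups. Its median difference from all genes (-0.38) was -0.29 under quantile normalization, and that of HS+A10 against A10 (-0.38) was -0.31. Without a filter 1 member, Rpl3l, was called higher in HS against Con and 1 member lower in HS+A10 against HS and in Con-FMT against HS. HS+A10 against HS had 2 lower under quantile normalization and 2 with the length trend removed (1 relative to all genes). A10-FMT against HS had, as deposited, 3, 2 and 1 higher under the same-median scaling, quantile normalization and length trend removal, and its 2 lower calls became 0, 1 and 0, and 0 with only the compared groups. Its median difference (0.12) was 0.0789 under quantile normalization and 0.0246 without a filter, and its 3 relative calls became 1 with only the compared groups. Con-FMT against HS had 9, 1 and 14 higher under those 3 settings, and its 9 relative calls became 0 with only the compared groups and 17 with the length trend removed. A10-FMT against Con-FMT had 1 higher under quantile normalization, and its 4 lower calls became 2 under same-median scaling, 2 under quantile normalization, 1 with only the compared groups and 2 with the replicate block. Its 2 relative calls became 1 with the replicate block and 0 with only the compared groups. The replicate block gave 67 relative calls in HS against Con and 68 in HS+A10 against A10.

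With each library left out in turn, members called lower in HS against Con ranged from 0 to 35 (relative 33 to 67, median difference -0.47 to -0.32), in HS+A10 against HS from 0 to 3 (relative 0 to 2), in A10-FMT against HS from 1 to 2, in A10-FMT against Con-FMT from 1 to 2 (relative 1 to 3) and in HS+A10 against A10 from 26 to 41 (relative 45 to 62). Members called higher relative to all genes ranged from 0 to 1 in A10-FMT against HS and from 1 to 34 in Con-FMT against HS, with a median difference of 0.10 to 0.27. The members with the lowest adjusted p among those called as deposited in HS against Con, A10-FMT against HS, A10-FMT against Con-FMT and HS+A10 against A10 kept their direction under the settings run for them, but many reruns were weaker. Of the leave-one-out reruns of single genes, 13 were the same and 11 weaker in HS against Con. In A10-FMT against HS these counts were 7 and 5, and in A10-FMT against Con-FMT 11 and 13. The 24 of HS+A10 against A10 were the same. With only the compared groups, 4 were weaker in HS against Con, 2 in A10-FMT against HS and 3 in A10-FMT against Con-FMT. Members named for other reasons were not rerun singly. The cause of these changes was not tested.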
